A study of Mus musculus with 6 samples.

Results

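The genes described here are 41 stress and translation genes, of 23366 gene symbols measured, in epithelial cells isolated from the mouse submandibular gland. They were chosen by symbol, with earlier results of these data known. All 41 were found: 21 genes of the ATF4 amino acid response and 20 cytosolic aminoacyl-tRNA synthetases. RNA-seq values came from 3 p63 knockout (KO) libraries and 3 wild-type (WT) libraries, all of adult mice aged 12 weeks. The labels name no agent, no Cre driver and no deleted exon for the knockout, and they do not say how many glands or mice went into a library. P-values therefore measure the spread between these libraries, which may be technical. All values are TPM (transcripts per 1000000), an abundance corrected for gene length. TPM keeps no record of sequencing depth, so the depth behind each value is unknown. Values of a group are always listed for libraries 1, 2 and 3 in that order.

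ATF4 is a transcription factor made when translation is slowed by phosphorylation of the initiation factor eIF2, as happens when amino acids run short or unfolded protein builds up in the endoplasmic reticulum. It turns on genes that import and make amino acids, charge tRNAs and, in lasting stress, promote cell death. Aminoacyl-tRNA synthetases attach each amino acid to its tRNA, and several of their genes are known ATF4 targets. Salivary acinar and duct cells secrete large amounts of protein and so depend on this supply of charged tRNA.

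Trp63, which encodes p63, had 1.59, 0.816 and 1.76 TPM in the KO libraries and 3.48, 1.85 and 3.68 TPM in the WT libraries. The groups did not overlap, and its adjusted p over all genes was above 0.05 (log2 fold change -0.74, SE 0.27, adjusted p = 0.27). KO library 3 stood apart from the other libraries. It had 10634 genes at 1 TPM or more, against 11129 to 11235 in the others, and its 50 most abundant genes took 80.3% of the TPM, against 69.2% to 75.9% in the others. In that share KO libraries 1 and 2 lay on the other side of WT, at 69.2% and 71.0% against 73.3% to 75.9%. The median over the genes tested was 10.4, 9.96 and 6.01 TPM in the KO libraries and 7.63, 7.36 and 7.60 TPM in the WT libraries. Granular duct markers such as Egf summed to 22744 to 52926 TPM in the KO libraries and 151621 to 174195 TPM in the WT libraries. Of 12 listed, 11 were tested and 4 passed as lower in the KO, and the renin gene Ren1 was listed at 0 in all 6 libraries. Acinar markers summed to 270792 to 310690.0 TPM in the KO libraries and 187354 to 198496 TPM in the WT libraries, and 0 of 11 passed. That sum was almost wholly Prol1, Pip and Car6, each above WT in every KO library. Over the 11 the median log2 fold change was -0.078, and 7 were negative, Dcpp1 (-3.28, SE 1.88) and Bpifa2 (-2.21, SE 1.83) among them. Both of these varied widely within each group. Basal and myoepithelial markers summed to 191 to 316 TPM against 562 to 619 TPM, with 2 of 9 passing as lower, and fibroblast markers to 160.5 to 310.5 TPM against 364 to 466 TPM, with 2 of 8 lower. Macrophage and leukocyte markers summed to 102 to 202 TPM against 379.9 to 443 TPM, and 0 of 7 passed. Endothelial markers summed to 16.8 to 26.3 TPM against 24.3 to 26.9 TPM, with 3 of 6 (Emcn, Kdr and Tek) below WT in every KO library and the other 3 positive in log2 fold change. Plasma cell markers summed to 203 to 400.1 TPM against 204 to 273 TPM, mostly from Xbp1, which secretory epithelium also uses and which was above WT in every KO library (log2 fold change 0.63), while Igj was at -1.30. None of these endothelial and plasma cell genes passed. In such mixed samples, fewer cells of a type and less RNA per cell cannot be told apart. How these shifts in cell type markers bear on the genes below was not tested.

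Most of the ATF4-type genes were above the WT mean in KO libraries 1 and 2, and a minority were in KO library 3. Of the 20 tested, 20 were above it in KO library 1 and 18 in KO library 2 (all but Psph and Slc38a2). In KO library 3, 7 were (35%), Slc7a5, Psat1, Slc7a1 and Atf4 among them. Of all genes tested, 65.2%, 64% and 18% were above it in KO libraries 1, 2 and 3. Over the 20 ATF4-type genes that passed the filter on low values, the median of log2(TPM + 1) minus the WT mean was 1.53, 1.22 and -0.17 in the KO libraries. Over all 11268 genes tested it was 0.27, 0.24 and -0.29. Set against the library's own median over all genes, the ATF4-type genes were thus at 1.26, 0.97 and 0.12 in the KO libraries. The 20 synthetases lay closer to WT, with medians of 0.57, 0.33 and -0.13 in the KO libraries, or 0.30, 0.087 and 0.16 against the library's own median over all genes. For the granular duct markers KO library 3 did not stand apart: its sum of 43364 TPM lay between 52926 and 22744 TPM in KO libraries 1 and 2.

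With all 6 libraries, 0 of 40 genes of the set passed in limma at the adjusted p threshold of 0.05. Over all genes tested, 0.071% passed as higher and 0.319% as lower in the KO. At an unadjusted p under 0.05, 4 were higher and 0 lower (background 4.99% higher, 10.5% lower). The groups did not overlap for 4 genes above WT and 1 below it (background 5.42% above, 15.6% below). Of the 40, 35 had a positive log2 fold change (87.5%, against 57.4% of all genes tested), and the median was 0.48, against 0.085 over all genes. KO libraries 1 and 2 both lay above the other 4 libraries for 30 of the 40 (background 45.9%). Because the set was chosen with earlier results of these data known, these shares lend no independent support. For a single gene, an exact two-sided permutation test of 3 libraries against 3 can go no lower than p = 0.1.

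Left out of the fit, KO library 3 changed the calls. Where it lay apart from KO libraries 1 and 2, leaving it out also removed KO spread. SEs and p-values without KO library 3 therefore describe only the libraries kept. With 2 KO libraries against 3 WT libraries, 25 of the 40 genes passed as higher and 0 as lower, while 33.8% of all genes tested passed as higher and 11.7% as lower. The median log2 fold change over all genes was then 0.26. Once each library was also scaled by the median of ratios, which put that median at -0.00040, 16 of the 40 passed as higher and 2 as lower (background 20.5% higher, 20.7% lower). This scaled fit was added after the data had been seen. By kind, 10 of 20 ATF4-type genes passed as higher in it, and 6 of 20 synthetases passed as higher and 2 as lower. When KO library 1 or KO library 2 was left out instead, without scaling, 0 of the 40 passed as higher and 0 as lower.

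**Figure D1:**
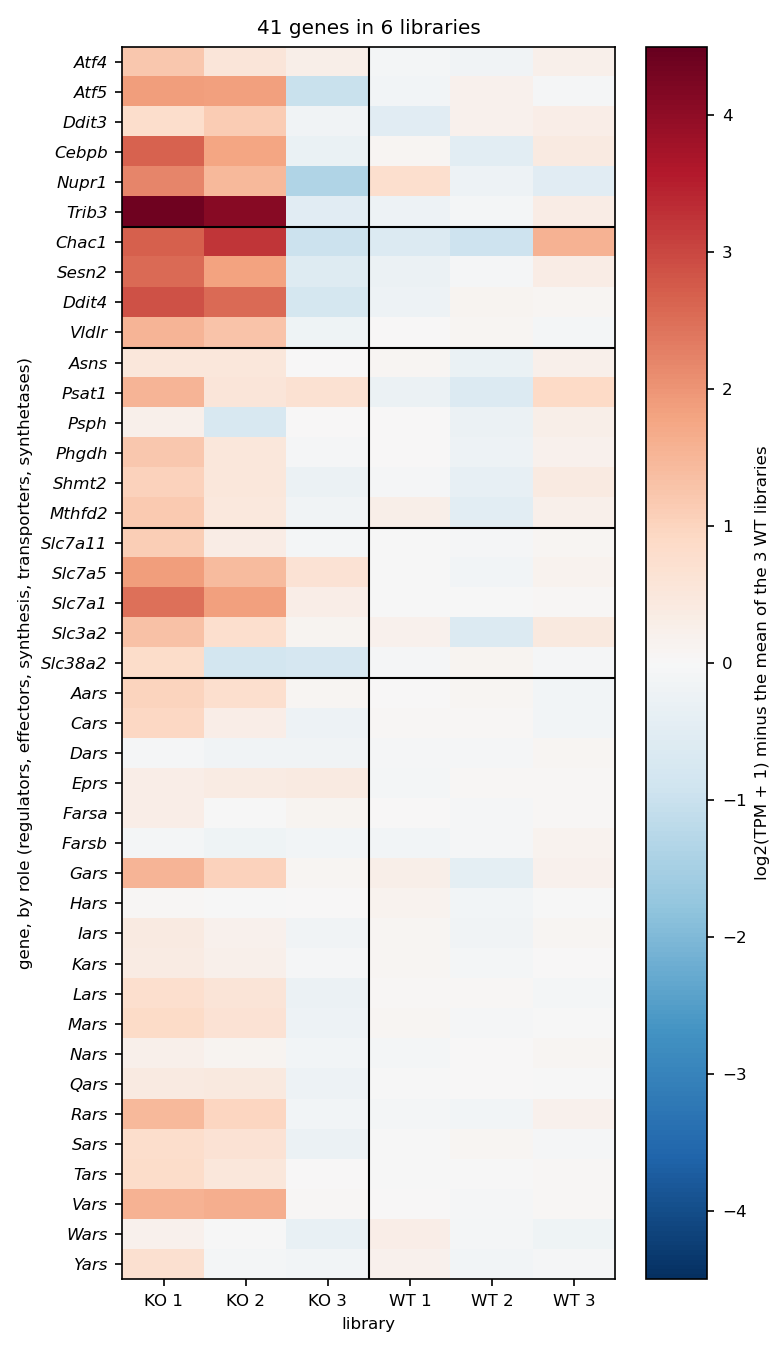
Difference of log2(TPM + 1) from the mean of the 3 WT libraries (colour) for the 41 genes (rows, by role) in the 3 KO and 3 WT libraries (columns). Trib3, Chac1 and Ddit4 are the darkest red in KO libraries 1 and 2, while KO library 3 is pale or blue for most rows.

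**Figure D2:**
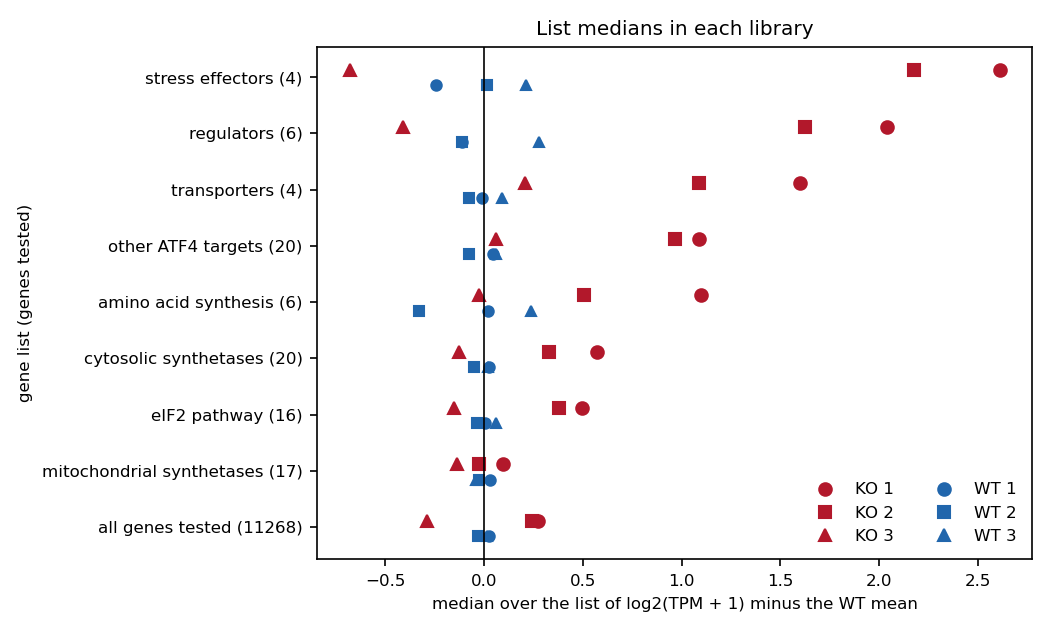
Median over each gene list of log2(TPM + 1) minus the WT mean (horizontal axis), with 1 point for each KO library (red) and WT library (blue); rows are lists, with the number of genes tested in brackets. The 4 stress effector genes reach 2.61 and 2.18 in KO libraries 1 and 2 and -0.68 in KO library 3, whereas the mitochondrial synthetases stay between -0.14 and 0.094 in the KO libraries.

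The DNA element through which ATF4 acts is shown here because it can be read in the promoters of several of these genes. This amino acid response element, bound by ATF4 with a C/EBP partner, was searched as TGATGNAA on both strands. The windows ran from 250 bases before to 50 bases after each RefSeq start site (GRCm38.p6), and 33 of the 41 genes had one. The motif was in 11 of the 33 genes, against 4.51% of the 27025 genes with a window (3.97% of the 32851 windows). The set was chosen for the ATF4 response, so its higher share lends no independent support. The 8 genes without a window were Slc7a5, Cars, Hars, Lars, Nars, Rars, Vars and Wars. The lines below give 1 site for each of 10 of these genes on the strand that reads TGATGNAA, with the motif in capitals and 10 bases on each side.
Trib3, chr2:152344029-152344056, plus strand: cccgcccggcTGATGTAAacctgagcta
Chac1, chr2:119351039-119351066, minus strand: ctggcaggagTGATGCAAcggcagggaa
Vldlr, chr19:27216810-27216837, minus strand: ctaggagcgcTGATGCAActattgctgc
Nupr1, chr7:126625563-126625590, plus strand: aagccctgtcTGATGCAAtctggccctt
Asns, chr6:7693215-7693242, minus strand: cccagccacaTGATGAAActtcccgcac
Slc7a11, chr3:50443662-50443689, minus strand: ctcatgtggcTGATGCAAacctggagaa
Gars, chr6:55037961-55037988, minus strand: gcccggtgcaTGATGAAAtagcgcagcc
Iars, chr13:49682127-49682154, minus strand: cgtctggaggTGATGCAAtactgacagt
Tars, chr15:11399656-11399683, plus strand: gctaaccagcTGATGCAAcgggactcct
Yars, chr4:129189896-129189923, plus strand: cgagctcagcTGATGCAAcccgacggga

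The 11 genes had 13 sites in all, and 9 of these read C at the open position. The sites lay from -196 (Vldlr) to 18 (Trib3) bases from the start site. The whole windows of Trib3 and Chac1, the tested genes of the set with the widest ratios between KO libraries, are given next on the strand of the gene. The motif is in capitals and there reads as its reverse complement.
Trib3, chr2:152344011-152344310, minus strand: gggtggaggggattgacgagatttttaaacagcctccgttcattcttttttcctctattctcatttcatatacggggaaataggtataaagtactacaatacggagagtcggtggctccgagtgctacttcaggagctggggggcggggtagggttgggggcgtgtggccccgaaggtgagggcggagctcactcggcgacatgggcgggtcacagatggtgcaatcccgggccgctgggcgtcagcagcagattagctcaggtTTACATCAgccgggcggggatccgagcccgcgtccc
Chac1, chr2:119350992-119351291, plus strand: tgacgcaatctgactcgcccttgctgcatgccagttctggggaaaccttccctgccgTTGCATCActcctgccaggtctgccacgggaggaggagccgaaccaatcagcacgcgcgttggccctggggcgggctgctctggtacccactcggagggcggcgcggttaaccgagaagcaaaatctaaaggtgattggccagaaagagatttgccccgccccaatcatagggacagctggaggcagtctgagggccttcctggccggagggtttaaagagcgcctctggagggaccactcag

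A match of letters is a description and no evidence of binding. The 10 tested genes that hold the motif ran from 0.15 (Iars) to 2.65 (Trib3) in log2 fold change. Genes whose windows hold no such letters included Ddit4 at 1.55, Slc7a1 at 1.53, Cebpb at 1.38 and Sesn2 at 1.26. Among genes without the letters, Slc38a2 was at -0.25, Psph at -0.15, Farsb at -0.14 and Dars at -0.13.

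Trib3 had the widest ratio between KO libraries of the tested genes of the set. It encodes a pseudokinase that ATF4 and CHOP induce and that feeds back on ATF4 signalling. It had 95.3, 78.4 and 2.22 TPM in the KO libraries, against 2.94, 3.36 and 4.76 TPM in the WT libraries. KO libraries 1 and 2 stood at 25.9 and 21.3 times the WT mean, while KO library 3 lay below all WT libraries, so the groups overlapped. The log2 fold change was 2.65 (SE 1.18, adjusted p = 0.34). Leaving out KO library 3 gave 4.24 (SE 0.20, adjusted p = 1.7e-04), and 3.96 with scaling added (adjusted p = 2.1e-04). Both fits drop the KO library that differed, so their p-values do not measure its spread. Leaving out KO library 1 instead gave 1.79 (limma adjusted p = 0.68), and KO library 2 gave 1.93 (limma adjusted p = 0.65).

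The other transcriptional regulators split the KO libraries in the same way, except Atf4 itself. Atf4 had 269, 171 and 139 TPM in the KO libraries and 108, 105 and 137 TPM in the WT libraries. All KO libraries were above all WT libraries, by a narrow margin for KO library 3 (139 TPM, against 137 TPM in WT library 3), and the gene did not pass (log2 fold change 0.68, SE 0.27, adjusted p = 0.30). ATF4 is controlled chiefly at the level of its translation, which these RNA values do not measure. Atf5, a related factor under the same kind of translational control, had 54.2, 52.7 and 6.45 TPM in the KO libraries, against 12.8, 16.04 and 13.6 TPM in the WT libraries. Cebpb, which encodes a C/EBP protein that pairs with ATF4 on DNA, had 60.3, 32.8 and 6.98 TPM in the KO libraries, against 9.396, 5.99 and 12.01 TPM in the WT libraries. For both genes KO libraries 1 and 2 were above every other library and KO library 3 was below at least 2 of the WT libraries.

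Ddit3, encoding the death-promoting factor CHOP, varied less, with 26.5, 34.7 and 13.5 TPM in the KO libraries and 10.2, 17.4 and 18.9 TPM in the WT libraries. Nupr1, a small stress-induced nuclear protein, was the most abundant gene of the set, at 3001, 1803 and 251 TPM in the KO libraries, against 1107, 550.5 and 453 TPM in the WT libraries. It also varied widely among the WT libraries, and its log2 fold change of 0.77 was smaller than its SE of 0.85. Of the 6 regulators, 0 passed with all libraries, and all 6 had positive log2 fold changes (median 0.83). All 6 passed as higher without KO library 3 (background 33.8%). With scaling added 4 did (background 20.5%), the exceptions being Atf4 (0.59, adjusted p = 0.063) and Ddit3 (0.68, adjusted p = 0.086).

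The stress effectors Chac1, Ddit4, Sesn2 and Vldlr were each higher in KO libraries 1 and 2 than in any other library and lower in KO library 3 than in any other. Both traits were common over all genes tested. KO libraries 1 and 2 lay above the other 4 libraries for 45.9% of them, and KO library 3 was the lowest for 52.9%. Chac1, an enzyme that degrades glutathione, had 75.7, 111 and 5.09 TPM in the KO libraries and 6.79, 5.27 and 34.5 TPM in the WT libraries. WT library 3, at 34.5 TPM, was far above the other WT libraries. Ddit4, also called REDD1, restrains the growth kinase mTORC1 and had 289, 228 and 21.9 TPM in the KO libraries, against 32.9, 41.7 and 40.96 TPM in the WT libraries. Its KO libraries 1 and 2 were at 7.49 and 5.91 times the WT mean and KO library 3 at 0.567 times. Sesn2, a leucine sensor that also restrains mTORC1, had 22.2, 12.99 and 1.65 TPM in the KO libraries and 2.27, 2.83 and 3.99 TPM in the WT libraries.

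Vldlr, a lipoprotein receptor induced by ATF4, was expressed at lower levels, with 6.08, 4.95 and 1.15 TPM in the KO libraries and 1.48, 1.59 and 1.29 TPM in the WT libraries. None of the 4 passed with all libraries (log2 fold changes 0.87 to 1.64, lowest adjusted p = 0.36). All 4 passed as higher without KO library 3 (background 33.8%). There, Chac1 was at 2.95 (SE 0.69), Ddit4 at 2.71 (SE 0.17), Sesn2 at 2.18 (SE 0.27) and Vldlr at 1.41 (SE 0.16). All 4 still passed with scaling added (background 20.5%).

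**Figure D3:**
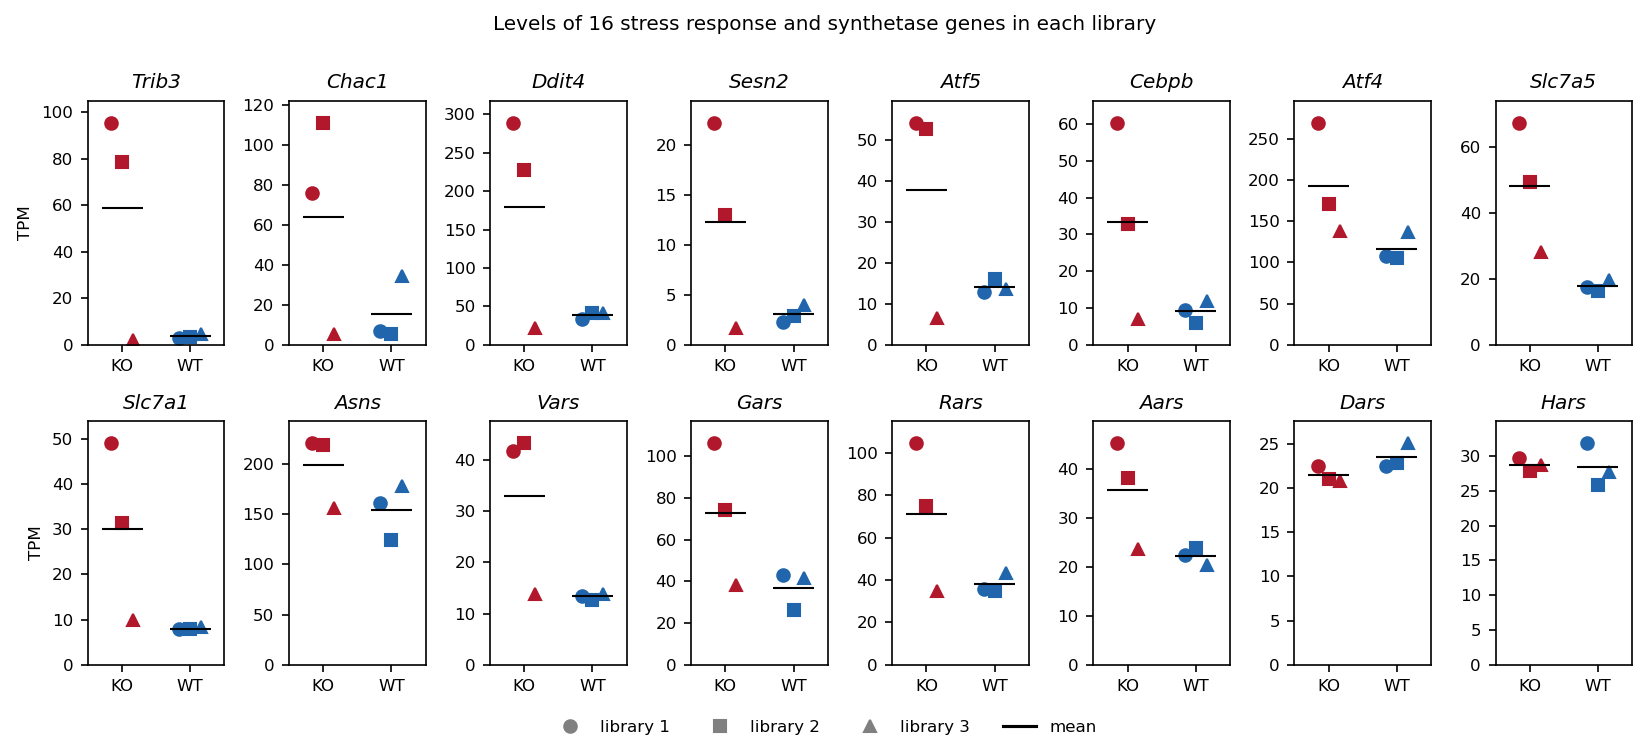
TPM (vertical axes, each from 0) of 16 genes in the KO libraries (red) and WT libraries (blue), with a symbol for each library and a line at the group mean. Trib3 lies at 95.3 and 78.4 TPM in KO libraries 1 and 2 and at 2.22 TPM in KO library 3, whereas Dars and Hars stay within 20.8 to 25.04 TPM and 25.9 to 31.8 TPM over all libraries.

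Enzymes that make amino acids and one-carbon units differed less between libraries than the stress effectors. Psat1, the transaminase of serine synthesis, had 43.4, 21.6 and 23.7 TPM in the KO libraries and 11.7, 9.02 and 27.5 TPM in the WT libraries. WT library 3 was above KO libraries 2 and 3, so the groups overlapped (log2 fold change 0.92, SE 0.44, adjusted p = 0.35). Phgdh, which catalyses the first step of the same pathway, had 111, 67.2 and 44.98 TPM in the KO libraries, against 48.3, 40.6 and 53.7 TPM in the WT libraries. Psph, the last enzyme of the pathway, did not follow, with 9.61, 4.52 and 8.16 TPM in the KO libraries and 8.06, 6.58 and 9.74 TPM in the WT libraries (log2 fold change -0.15, SE 0.30).

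Asns, the asparagine synthetase and a classical ATF4 target, had 220.0, 219 and 156 TPM in the KO libraries and 161, 124 and 178 TPM in the WT libraries, a difference of 0.36 on the log2 scale (SE 0.23, adjusted p = 0.44). Its KO libraries 1 and 2 were at only 1.43 and 1.42 times the WT mean. The mitochondrial one-carbon enzymes gave 53.7, 32.6 and 20.8 TPM for Mthfd2 in the KO libraries, against 27.9, 16.5 and 27.1 TPM in the WT libraries, and 24.2, 16.8 and 9.25 TPM for Shmt2 in the KO libraries, against 11.005, 8.62 and 15.5 TPM in the WT libraries. In both, KO library 1 was the highest of the 6. Of these 6 enzymes 0 passed with all libraries. Phgdh (0.86, adjusted p = 0.022) and Shmt2 (0.77, adjusted p = 0.045) passed as higher without KO library 3. That share of the 6, 33.3%, was close to the 33.8% of all genes tested. With scaling added, 0 passed (background 20.5% higher).

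Among the amino acid transporters, Slc7a5 and Slc7a1 were above WT in every KO library. Slc7a5, the light chain of a carrier of large neutral amino acids such as leucine, had 67.1, 49.2 and 28.1 TPM in the KO libraries and 17.4, 16.2 and 19.6 TPM in the WT libraries. Every KO library was above every WT library, and KO library 3 was at 1.59 times the WT mean. It had the lowest adjusted p of the set but did not pass (48.1 ± 19.5 TPM in KO and 17.7 ± 1.72 TPM in WT, SD, n = 3 each; log2 fold change 1.31, SE 0.32, limma adjusted p = 0.11). Under median-of-ratios scaling of all 6 libraries it passed, at 1.23 (adjusted p = 0.047), and over 18 alternatives it passed in 6 (adjusted p 7.8e-04 to 0.43, log2 fold change 1.04 to 1.65).

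Slc7a1, a carrier of arginine and lysine, had 48.96, 31.3 and 10.02 TPM in the KO libraries, against 8.03, 7.83 and 8.28 TPM in the WT libraries. The groups did not overlap, but KO library 3 was only 1.25 times the WT mean, against 6.08 and 3.89 times in KO libraries 1 and 2 (log2 fold change 1.53, SE 0.51, adjusted p = 0.23). Slc3a2, the heavy chain that brings Slc7a5 and Slc7a11 to the cell surface, had 167, 111 and 72.2 TPM in the KO libraries and 74.6, 42.9 and 88.7 TPM in the WT libraries, which overlapped. Slc38a2, a sodium-coupled carrier of small neutral amino acids, went the other way in KO libraries 2 and 3, with 124, 38.4 and 40.5 TPM in the KO libraries and 66.02, 75.2 and 66.4 TPM in the WT libraries. Slc7a11, which imports cystine, was the 1 gene of the set that fell below the filter, at 1.3004, 0.354 and 0 TPM in the KO libraries and 0.0502, 0.0296 and 0.141 TPM in the WT libraries. It was not tested. Without KO library 3, Slc7a5 (1.65), Slc7a1 (2.15) and Slc3a2 (1.04) passed as higher, of 4 tested (background 33.8%). With scaling added, Slc7a5 (1.36) and Slc7a1 (1.87) did (background 20.5%).

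The 20 cytosolic synthetases ranged from Vars, with over 3 times the WT mean in KO libraries 1 and 2, to genes that hardly varied. Vars, for valine, had 41.6, 43.2 and 13.7 TPM in the KO libraries and 13.5, 12.7 and 13.8 TPM in the WT libraries. KO libraries 1 and 2 were at 3.12 and 3.23 times the WT mean, and KO library 3 lay within the narrow WT range (log2 fold change 1.08, SE 0.42, adjusted p = 0.29). Rars, for arginine, had 104, 74.8 and 34.6 TPM in the KO libraries, against 35.6, 34.6 and 43.5 TPM in the WT libraries. Gars, for glycine in both the cytosol and mitochondria, had 106, 74.1 and 38.3 TPM in the KO libraries, against 42.9, 26.1 and 41.4 TPM in the WT libraries. These 3 synthetases and Aars, for alanine (45.1, 38.1 and 23.6 TPM in the KO libraries and 22.5, 23.7 and 20.4 TPM in the WT libraries), had the largest differences of the 20.

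A middle group was higher in KO libraries 1 and 2 by smaller ratios. Tars, for threonine, had 55.2, 43.7 and 31.3 TPM in the KO libraries and 30.01, 30.3 and 31.7 TPM in the WT libraries. Mars, for methionine, had 47.1, 40.04 and 21.7 TPM in the KO libraries and 26.9, 24.5 and 24.997 TPM in the WT libraries. For Sars, the serine enzyme, the values were 57.7, 52.7 and 27.04 TPM in the KO libraries and 32.6, 35.2 and 31.5 TPM in the WT libraries. In each of these 3 genes KO libraries 1 and 2 were the highest of the 6, which also held for the next 3. Lars (leucine) had 40.1, 35.1 and 19.1 TPM in the KO libraries and 24.01, 24.2 and 22.1 TPM in the WT libraries, and Cars (cysteine) had 23.1, 14.6 and 9.73 TPM in the KO libraries and 12.2, 12.1 and 10.6 TPM in the WT libraries. Qars (glutamine) had 64.5, 66.5 and 41.7 TPM in the KO libraries, against 48.9, 49.6 and 48.6 TPM in the WT libraries.

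Other synthetases varied little. Eprs, a fused enzyme for glutamate and proline, had 36.7, 38.5 and 40.2 TPM in the KO libraries and 28.2, 30.7 and 30.6 TPM in the WT libraries. It was the only synthetase with every KO library above every WT library, and the difference was small (log2 fold change 0.36, SE 0.18, adjusted p = 0.37). Dars, for aspartate, was the only gene of the set with every KO library below every WT library, at 22.5, 21.04 and 20.8 TPM in the KO libraries and 22.5, 22.9 and 25.04 TPM in the WT libraries (log2 fold change -0.13, SE 0.19, adjusted p = 0.73). For Dars, KO library 1 and WT library 1 differed by less than the rounding shown. Hars (histidine) had 29.7, 27.8 and 28.7 TPM in the KO libraries and 31.8, 25.9 and 27.7 TPM in the WT libraries, and Nars (asparagine) had 112, 103 and 86.5 TPM in the KO libraries and 89.8, 95.7 and 101 TPM in the WT libraries.

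Farsa and Farsb encode the subunits of the phenylalanine enzyme. Farsa had 23.3, 18.3 and 20.3 TPM in the KO libraries and 18.9, 17.7 and 19.05 TPM in the WT libraries, and Farsb had 18.6, 17.2 and 18.5 TPM in the KO libraries and 18.5, 19.3 and 22.6 TPM in the WT libraries. Both overlapped between the groups, at log2 fold changes of 0.14 and -0.14. The remaining 4 also overlapped. Kars (lysine) had 48.9, 44.2 and 36.2 TPM in the KO libraries and 39.6, 35.2 and 37.4 TPM in the WT libraries, and Iars (isoleucine) had 29.1, 24.9 and 19.6 TPM in the KO libraries and 23.2, 19.4 and 22.996 TPM in the WT libraries. Yars (tyrosine) had 22.98, 12.7 and 12.1 TPM in the KO libraries and 15.4, 12.2 and 12.7 TPM in the WT libraries, and Wars (tryptophan) had 13.1, 11.3 and 8.81 TPM in the KO libraries and 13.98, 10.6 and 9.71 TPM in the WT libraries. The sign of the log2 fold change depended on scaling for Hars, Nars, Farsa and Iars, which fell below 0 under at least 1 of the scaling alternatives.

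As a list, 0 of 20 synthetases passed with all libraries, 17 had a positive log2 fold change and the median was 0.27. Without KO library 3, 10 passed as higher (background 33.8%): Aars, Cars, Gars, Lars, Mars, Qars, Rars, Sars, Tars and Vars. With scaling added, Vars (1.31), Gars (0.98), Rars (0.91), Aars (0.58), Mars (0.45) and Sars (0.42) passed as higher, and Dars (-0.40) and Farsb (-0.44) as lower. In that fit 20.5% of all genes tested passed as higher and 20.7% as lower. The 8 synthetases of the multisynthetase complex, a particle that holds several of these enzymes together, had a median of 0.27, and the other 12 had 0.26 (all libraries, not tested). That grouping was made after the values were seen.

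**Figure D4:**
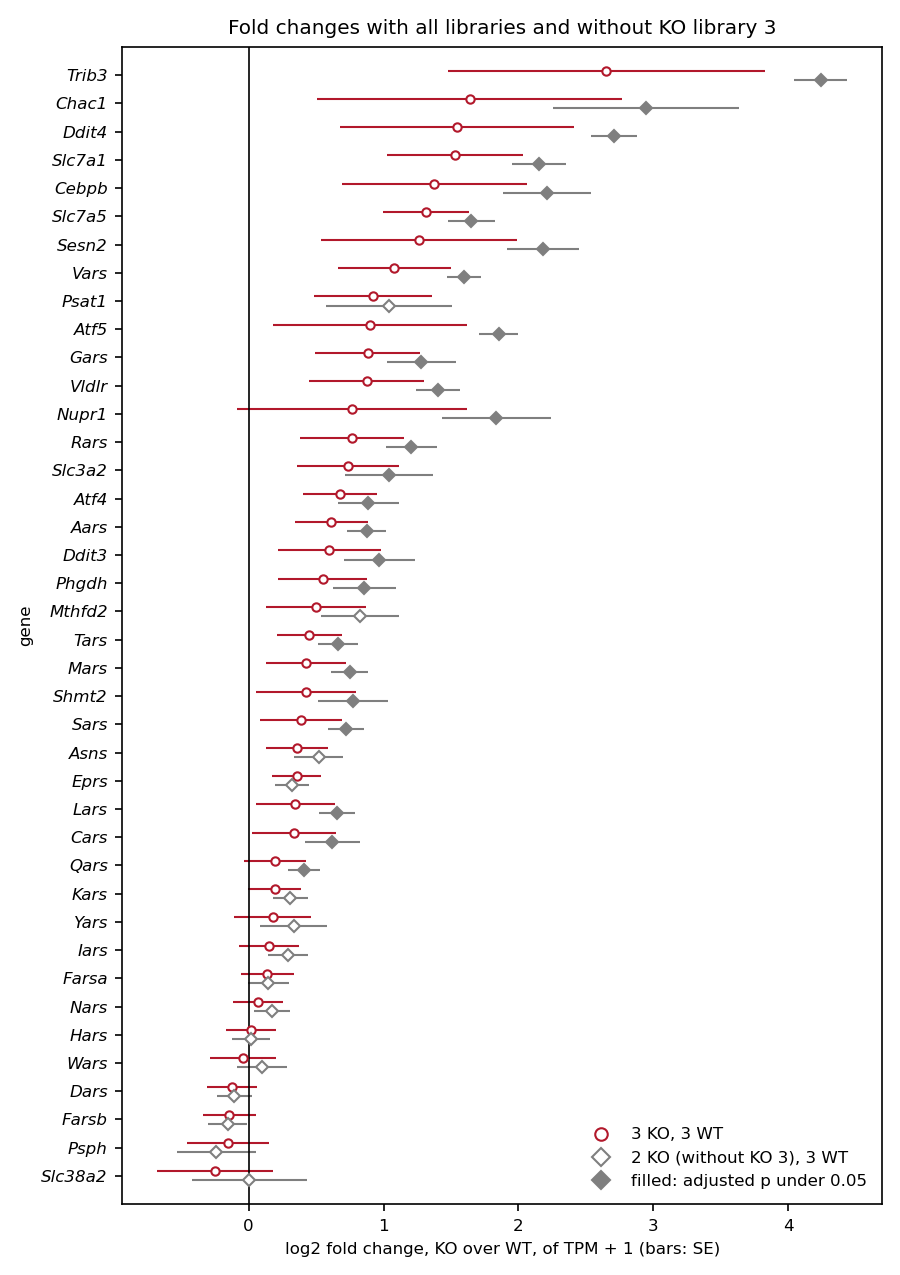
Log2 fold change of TPM + 1, KO over WT (horizontal axis, bars are SE), for the 40 tested genes (rows, sorted), with all libraries (red circles) and without KO library 3 (grey diamonds; filled where the adjusted p is under 0.05). No circle is filled, 25 diamonds are, and Trib3 is at 2.65 and 4.24.

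KO libraries differed among themselves more than WT libraries did, in the set and over all genes. The highest KO library exceeded the lowest by 43.02 times for Trib3, 21.8 times for Chac1, 13.4 times for Sesn2 and 13.2 times for Ddit4. The ratio of highest to lowest library, on TPM + 1, was wider in KO than in WT for 35 of 40 genes (87.5%), close to the 85.8% of all genes tested. Its median was 2.84 in KO and 1.45 in WT for the ATF4-type genes, and 1.75 in KO and 1.22 in WT over all genes. KO library 3 was the lowest of all 6 libraries for 17 of the 40 genes (42.5%), and for 52.9% of all genes tested. Among the genes counted above as acinar markers, Bpifa2, also a product of the neighbouring parotid and sublingual glands, varied in another order. It had 3648, 15.3 and 281 TPM in the KO libraries and 826, 5152 and 389.6 TPM in the WT libraries. How Bpifa2 relates to the split of the stress genes was not tested.

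Upstream of ATF4, the kinases that phosphorylate eIF2, eIF2 itself, its exchange factor eIF2B and its phosphatase subunits were listed as 16 genes, of which 0 passed with all libraries (median 0.25). Gcn1l1, the activator of the amino acid sensing kinase GCN2, was the 1 gene with all KO libraries above all WT libraries, at 21.02, 23.96 and 9.28 TPM in the KO libraries and 9.03, 9.198 and 8.78 TPM in the WT libraries (log2 fold change 0.83, adjusted p = 0.31). Ppp1r15b, a constitutive phosphatase subunit for eIF2, had 66.7, 45.1 and 25.4 TPM in the KO libraries and 22.5, 24.1 and 31.1 TPM in the WT libraries. The stress-induced subunit Ppp1r15a, itself an ATF4 target, had 34.2, 13.6 and 6.25 TPM in the KO libraries, against 7.798, 6.41 and 8.03 TPM in the WT libraries. Without KO library 3, 8 of 16 passed as higher (background 33.8%) and 0 as lower, and 5 as higher with scaling added (background 20.5%).

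Of 26 other ATF4 targets, 20 were tested, 0 passed, 19 had positive log2 fold changes and the median was 0.77. For 8 of them every KO library was above every WT library (background 5.42%). Aldh18a1, which starts proline synthesis, had 54.4, 43.6 and 47.5 TPM in the KO libraries and 28.8, 20.3 and 24.6 TPM in the WT libraries (log2 fold change 0.96, SE 0.21, adjusted p = 0.093). Slc38a1, a glutamine carrier, had 11.9, 10.1 and 14.4 TPM in the KO libraries, against 5.95, 4.49 and 5.34 TPM in the WT libraries (log2 fold change 1.06, SE 0.23, adjusted p = 0.092). In these 2 genes KO library 3 was as far above WT as the others. Slc43a1, a carrier of branched-chain amino acids, instead split like Trib3, with 59.3, 53.3 and 5.68 TPM in the KO libraries and 6.02, 4.62 and 5.34 TPM in the WT libraries. Leaving out KO library 3, 16 of 20 passed as higher (background 33.8%), and 14 with scaling added (background 20.5%). Some of the genes of this list were known from earlier results of these data when it was written, and it lends no independent support.

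Mitochondrial synthetases, which charge tRNAs for the organelle's own translation, did not share the pattern. Of 17, 8 were positive (47.1%, against 57.4% of all genes tested), and the median was -0.016. With all libraries 0 passed, as in the set itself. Without KO library 3, 0 passed as higher and 1 as lower (background 33.8% and 11.7%). With scaling added, 0 passed as higher and 4 as lower (background 20.5% and 20.7%). Mars2 had 2.98, 4.01 and 3.32 TPM in the KO libraries and 1.69, 2.18 and 2.71 TPM in the WT libraries. Among scaffolds of the synthetase complex, Eef1e1 had 4.13, 3.68 and 14.5 TPM in the KO libraries, against 15.4, 15.1 and 14.9 TPM in the WT libraries (log2 fold change -1.17, SE 0.45, adjusted p = 0.28). KO libraries 1 and 2 were thus far below and KO library 3 just below WT, and Aimp1 ran the other way, with 65.1, 68.9 and 27.1 TPM in the KO libraries and 43.3, 38.7 and 39.9 TPM in the WT libraries. Xpot, the export receptor for tRNA, had 28.01, 20.1 and 15.4 TPM in the KO libraries and 14.2, 14.9 and 15.96 TPM in the WT libraries. Of the 5 genes for scaffolds, tRNA export and a threonine synthetase copy, 0 passed with all libraries. Without KO library 3, 2 passed as higher and 1 as lower (background 33.8% and 11.7%).

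Folate and serine enzymes outside the set gave 0 calls among 10 tested with all libraries. Without KO library 3 they gave 2 higher and 3 lower (background 33.8% and 11.7%). Amt, of the glycine cleavage system, had 8.77, 8.66 and 12.7 TPM in the KO libraries and 17.5, 18.8 and 16.8 TPM in the WT libraries (log2 fold change -0.78, adjusted p = 0.16). Of 14 tested genes that relay amino acid levels to mTORC1, 0 passed with all libraries. Without KO library 3, 9 passed as higher and 2 as lower (background 33.8% and 11.7%), and 7 and 2 with scaling added (background 20.5% and 20.7%). Sesn1, a relative of Sesn2, had 185, 88.04 and 6.71 TPM in the KO libraries and 16.4, 10.8 and 17.4 TPM in the WT libraries, and Flcn, a regulator of the Rag proteins, had 48.3, 47.3 and 12.4 TPM in the KO libraries, against 13.1, 16.9 and 15.6 TPM in the WT libraries. These 2 genes, picked after their values were seen, followed the split of the stress effectors. Gatsl3, also called Castor1, an arginine sensor, had 2.77, 2.47 and 0.709 TPM in the KO libraries and 5.99, 3.93 and 3.996 TPM in the WT libraries, every KO library below every WT library (log2 fold change -0.98, adjusted p = 0.25). Nprl2, of the GATOR1 complex, had 6.24, 5.01 and 6.23 TPM in the KO libraries and 7.39, 8.67 and 9.49 TPM in the WT libraries (log2 fold change -0.48, adjusted p = 0.35).

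Some values are less certain because reads may be shared. Exons of Ddit3 and Mars overlap on opposite strands in GENCODE M21, as do those of Hars and Hars2, Atf5 and Nup62, Farsb and Sgpp2, Psph and Cct6a, Shmt2 and Ndufa4l2, and Yars and C77080. Aars exons overlap Exosc6 on the same strand. The strand setting of the counting was not given in the sources used here. Phgdh has 17 near-identical copies in the annotation, with identity up to 98.7% (Gm7901), and Psat1 and Iars have 1 each over part of their length.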

How the data were processed

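TPM values were deposited, made by the authors by normalizing gene counts to the length of the gene and the size of the library, as the labels state. The submitters' processing notes list the build mm9, Bowtie2 2.2.6, TopHat2 2.1.1, DESeq2 1.20.0 and featureCounts 1.5.1, with no order. Neither the annotation nor the strand setting is given in the sources used here. RNA was extracted with a column kit and libraries were made with a TruSeq kit from total RNA, per the labels' protocols.

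Log2(TPM + 1) was tested, KO against WT, with limma 3.58.1 (empirical Bayes with a mean-variance trend, R 4.3.3) over the 11268 genes that reached 1 TPM in 3 or more libraries. Adjusted p-values are two-sided limma p-values with Benjamini-Hochberg adjustment over these genes, with a threshold of 0.05. Fold changes on this scale understate those of low genes. Values of single libraries are TPM. No count test was possible on TPM. The procedure was tested on simulated data with independent noise for each gene and the same SD in both groups. Those data held no shift of a whole library, so that test does not cover a library like KO library 3. The members and lists were chosen with earlier results of these data known. Named in full were members that passed or whose groups did not overlap, then those with the lowest p up to 12, and other members as examples. Of each further list up to 3 passing genes were to be named, or else the 2 with the lowest p, and any other gene named there was picked after its values were seen. A few items that these rules would name are not reported here.

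Promoter windows and start sites are RefSeq's (GRCm38.p6, a later build than mm9), matched by symbol with no coordinate converted. One gene, Mars, was matched through its newer symbol. Exon overlaps and near-identical transcripts (at least 90% identity over at least 30% of the transcript, minimap2 2.31) came from GENCODE M21. Python 3.11.15 with matplotlib 3.10.9 made the plots.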

Additional observations from a re-analysis of the deposited data

How the results depend on the processing

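Over 18 alternatives the median log2 fold change stayed positive for the ATF4-type genes (0.47 to 1.22) and for the synthetases (0.079 to 0.37) and Trp63 stayed negative in the 17 that tested it. The 12 members named by rule kept their direction in every alternative that tested them. Other members did not: Hars, Nars, Farsa and Iars turned under scaling and Psph, Slc38a2, Wars and Yars in fits that left out or down-weighted a library, and none of these 8 passed in any of the 18.

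Calls depended on the setting. Genes passing as higher, 8 of all tested, numbered 5 with no filter on low values, 15 with median-of-ratios scaling, 17 with quantile normalization, 18 when the 50 most abundant genes were left out of the rescaling, 3477 with array weights and 2309 with scaling and no KO library 3. Genes passing as lower, 36 of all tested, numbered 18 at a pseudocount of 0.1 TPM, 6 with no filter, 22 with a filter of 5 TPM, 58 with median-of-ratios scaling, 55 with quantile normalization, 88 with the 50 most abundant left out, 1345 with array weights and 2332 with scaling and no KO library 3. Array weights gave KO library 3 the weight 0.08996, so that setting comes close to leaving it out. Leaving out 1 library at a time gave 0 to 3809 higher and 0 to 1318 lower genes. These were 3809 and 1318 without KO library 3, 3 and 8 without KO library 1, 3 and 13 without KO library 2, 0 and 1 without WT library 1, and 0 and 0 without WT library 2 or WT library 3. At an unadjusted p under 0.05 in limma, 207 genes were higher and 817 lower without WT library 2, and 231 higher and 789 lower without WT library 3.

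Of the set, 1 gene (Slc7a5) passed as higher with median-of-ratios scaling, 1 with quantile normalization and 1 with the 50 most abundant left out, 21 did with array weights, and 16 with scaling and no KO library 3, where 2 passed as lower. Leaving out 1 library at a time gave 0 to 25 higher members, with 25 only without KO library 3. Trp63 passed at -0.92 with array weights, -0.85 without KO library 3 and -1.03 with scaling added, and its range with 1 library left out was -0.96 to -0.55. The cause of these changes was not tested.

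The labels share no replicate numbers. Index numbers that neighbour each other could pair KO with WT libraries. The correlations of deviations from the group means were 0.17, 0.23 and 0.077 for the neighbouring pairs. They ran from -0.21 to 0.032 for the other pairs of a KO and a WT library. No label says that neighbours share a batch, and whether they do was not tested. With the replicate block on the neighbouring pairs, 7 genes passed as higher and 24 as lower, with 0 members. TPM gives no depth, so what depth limits cannot be given here.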
